A study of Arabidopsis thaliana with 16 samples.

Results

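The 10 genes described here set how an *Arabidopsis* seed uses light to decide on germination, out of 37336 loci counted in each library. They were taken by locus identifier, without a cutoff on any measured value, but with earlier results of these data known. The genes are *PHYA* (AT1G09570), *PHYB* (AT2G18790), *PIF1* (AT2G20180), *PIF3* (AT1G09530), *PIF4* (AT2G43010), *PIF6* (AT3G62090), *SPT* (AT4G36930), *SOM* (AT1G03790), *DAG1* (AT3G61850) and *HY5* (AT5G11260). Of the 10, 8 had enough counts to be tested and 2, *PIF4* and *HY5*, did not.

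3′RNA-seq, which reads transcripts near their poly(A) ends, was performed on freshly harvested seeds of WT (Col-0) and of the *dog1-3* mutant, a T-DNA line in *DOG1*, the gene for the dormancy protein DELAY OF GERMINATION 1. Seeds of both genotypes were taken 1 day after harvest and kept for 72 h at 4°C on half-strength MS agar, either plain (mock) or with 100 mM NaCl. Each of the 4 groups (WT mock, WT NaCl, *dog1-3* mock and *dog1-3* NaCl) had 4 libraries, described by the submitters as biological replicas. By the study's methods for salt stress, the plates were covered in foil during the cold period and seeds were taken directly after it, so that these are seeds imbibed in the dark. Mock and NaCl reactions were pooled separately after reverse transcription, so that pool and treatment cannot be told apart.

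Red and far-red light are read in seeds by phytochromes, of which phyB acts in red light and phyA is the far-red and very-low-light receptor that builds up in imbibed seeds. Activated phytochromes enter the nucleus and remove PIF proteins, bHLH transcription factors. Of these PIF1 is the main repressor of germination in the dark, acting in part through *SOM*, a gene for a CCCH zinc-finger protein that lowers gibberellin and raises abscisic acid. SPT, a related bHLH protein, and DAG1, a Dof transcription factor, hold back the gibberellin synthesis gene *GA3OX1* in imbibed seeds, and HY5 is a bZIP factor that promotes light responses.

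The libraries held between 1416354 and 3635844 counts, so that 3 counts, taken as the detection floor, corresponded to 0.726 to 2.35 CPM, the counts of a gene scaled to a common library size with TMM factors. The floor covers counting error only. *DOG1*, the check of the genotype labels, stood at 80.5 ± 16.4 CPM in WT mock and 15.6 ± 2.30 CPM in *dog1-3* mock (SD, n = 4), and at 145 ± 23.9 against 18.9 ± 3.04 CPM on NaCl. The summed level of 6 seed storage and late embryogenesis markers lay between 26337 and 43458 CPM in WT mock, 39404 and 55739 CPM in WT NaCl, 61292 and 69854 CPM in *dog1-3* mock and 76172 and 100393 CPM in *dog1-3* NaCl. All 6 were called higher in *dog1-3* in both treatments. With salt all 6 had positive values in both genotypes, with a median log2 fold change of 0.37 in WT (2 called) and 0.45 in *dog1-3* (1 called, 4 by adjusted p alone). The sum of 2 endosperm markers, *EPR1* and *MAN7*, lay between 15086 and 21284 CPM in WT mock, 16669 and 24316 CPM in WT NaCl, 25872 and 34243 CPM in *dog1-3* mock and 22865 and 29720 CPM in *dog1-3* NaCl. Of these *EPR1* was called higher in *dog1-3* in mock (0.78), while *MAN7* had a negative value (-0.14). On NaCl 1 of them was positive (0.37) and 1 negative (-0.20) between genotypes. The 20 most abundant genes took 16% to 26.3% of the counts. Of 3 flower markers, *AP1* was at 0 in every library and none passed 3 counts in a library. Seeds are mixed tissue, and fewer cells of a type and less RNA per cell cannot be told apart here.

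The promoters of the genes with the clearest differences between groups are shown, since PIF and HY5 proteins bind the G-box, CACGTG, and PIFs also bind the PBE, CACATG. Each sequence is the 300 bases before the annotated gene start in the TAIR10.1 RefSeq assembly, 5′ to 3′ on the strand of the gene, and capitals mark a G-box or a PBE on either strand. The windows lie at chr1:3100820-3101119 on the minus strand for *PHYA*, chr2:8139456-8139755 on the plus strand for *PHYB*, chr1:953990-954289 on the plus strand for *SOM*, chr4:17413783-17414082 on the plus strand for *SPT* and chr3:22990710-22991009 on the minus strand for *PIF6*.
PHYA: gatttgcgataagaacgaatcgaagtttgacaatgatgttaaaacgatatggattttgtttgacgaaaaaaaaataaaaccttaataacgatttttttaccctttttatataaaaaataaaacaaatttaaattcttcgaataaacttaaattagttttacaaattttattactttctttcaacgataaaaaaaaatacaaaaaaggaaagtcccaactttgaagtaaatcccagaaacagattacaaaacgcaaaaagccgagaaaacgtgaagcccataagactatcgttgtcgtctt
PHYB: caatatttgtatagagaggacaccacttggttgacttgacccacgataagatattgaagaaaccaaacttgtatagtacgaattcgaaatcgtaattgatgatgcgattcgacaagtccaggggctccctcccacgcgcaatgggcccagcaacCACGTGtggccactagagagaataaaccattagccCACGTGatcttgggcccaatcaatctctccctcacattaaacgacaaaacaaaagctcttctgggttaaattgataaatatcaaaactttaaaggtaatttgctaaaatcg
SOM: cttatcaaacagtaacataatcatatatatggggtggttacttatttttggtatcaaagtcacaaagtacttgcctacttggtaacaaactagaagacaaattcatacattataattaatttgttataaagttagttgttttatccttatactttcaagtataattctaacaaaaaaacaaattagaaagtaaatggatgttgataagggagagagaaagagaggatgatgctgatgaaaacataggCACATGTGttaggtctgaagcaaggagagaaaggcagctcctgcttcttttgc
SPT: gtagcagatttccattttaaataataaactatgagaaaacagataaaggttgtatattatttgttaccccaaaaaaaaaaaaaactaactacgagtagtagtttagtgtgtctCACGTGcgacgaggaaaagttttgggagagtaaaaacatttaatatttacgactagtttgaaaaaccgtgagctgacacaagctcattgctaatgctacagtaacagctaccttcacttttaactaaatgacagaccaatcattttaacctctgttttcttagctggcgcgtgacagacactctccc
PIF6: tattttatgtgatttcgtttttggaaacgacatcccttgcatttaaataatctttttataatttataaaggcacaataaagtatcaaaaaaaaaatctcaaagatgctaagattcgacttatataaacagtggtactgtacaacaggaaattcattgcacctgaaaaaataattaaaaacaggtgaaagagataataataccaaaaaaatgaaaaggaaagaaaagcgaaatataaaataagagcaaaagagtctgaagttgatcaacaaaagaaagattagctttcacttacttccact

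The *PHYB* window held 2 G-boxes, beginning 146 and 111 bases before the gene, and the *SPT* window held 1, at 187 bases. The *SOM* window held 2 overlapping PBEs, 1 on each strand, at 53 and 51 bases. Neither motif was in the windows of *PHYA*, *PIF1*, *PIF3*, *PIF4*, *PIF6* or *DAG1*, and *HY5* had a PBE at 138 bases. *PIF6* had 3 G-boxes farther out, at 658, 647 and 486 bases. A PBE also lay farther out in *PHYA* (753 bases), *PIF4* (507), *DAG1* (895) and *HY5* (799). A G-box occurred in 7.09% and a PBE in 13.1% of all 27443 protein-coding promoters of this length. In windows of 1000 bases the shares were 14.8% and 37.7%. Each such match is a description of the letters and not a measured binding site.

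*PHYA* showed the clearest difference with salt among the 10 genes. Its level was 295, 294, 271 and 288 CPM in the 4 WT mock libraries and 529, 503, 525 and 545 CPM in WT on NaCl. In *dog1-3* it was 332, 343, 294 and 327 CPM in mock and 574, 591, 580.0 and 545 CPM on NaCl. Every NaCl library of either genotype lay above every mock library. The difference came to 1.83-fold in WT, with a log2 fold change of 0.87 (SE 0.072, adjusted p = 4.60e-12, edgeR quasi-likelihood test), and to 1.77-fold in *dog1-3*, with a log2 fold change of 0.82 (SE 0.074, adjusted p = 6.58e-11, edgeR). The change on NaCl differed between the genotypes by -0.05 on the log2 scale (95% interval -0.26 to 0.16), and this difference did not pass the test. The seed markers also had positive values with salt, as given above, and their part in the salt differences of *PHYA*, *PHYB*, *SOM* and *DAG1* was not tested. With 427 CPM over all libraries *PHYA* ranked 335 of the 12697 genes tested, on the scale of transcript ends, which was not divided by length.

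*PHYB*, the red light receptor, rose with salt in WT. At 29.7 CPM over all libraries it ranked 4846 among the genes tested, at percentile 61.8 and thus above their median. WT mock libraries held 21.2, 23.0, 20.9 and 22.0 CPM and WT NaCl libraries 32.5, 30.6, 32.5 and 40.0 CPM. *dog1-3* libraries held 31.4, 30.6, 21.2 and 29.4 CPM in mock and 35.2, 35.5, 34.9 and 34.5 CPM on NaCl. The WT groups did not overlap, and neither did the *dog1-3* groups, although 1 *dog1-3* mock library lay within the range of WT mock. The log2 fold change with salt was 0.63 in WT (SE 0.13, adjusted p = 0.000119, edgeR) and passed the limit of 1.5-fold. It was under that limit without WT NaCl replicate 4 (0.55) and when libraries were scaled by size alone (0.52). In *dog1-3* the log2 fold change was 0.30 (adjusted p = 0.0933, edgeR) and did not pass, and the difference between the genotypes in this change, -0.33 (95% interval -0.71 to 0.04), did not pass either. In mock, *PHYB* was higher in *dog1-3* than in WT by 0.38 (adjusted p = 0.0198, edgeR), under the fold limit, and with scaling by size alone this was 0.20 (adjusted p = 0.219).

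**Figure D1:**
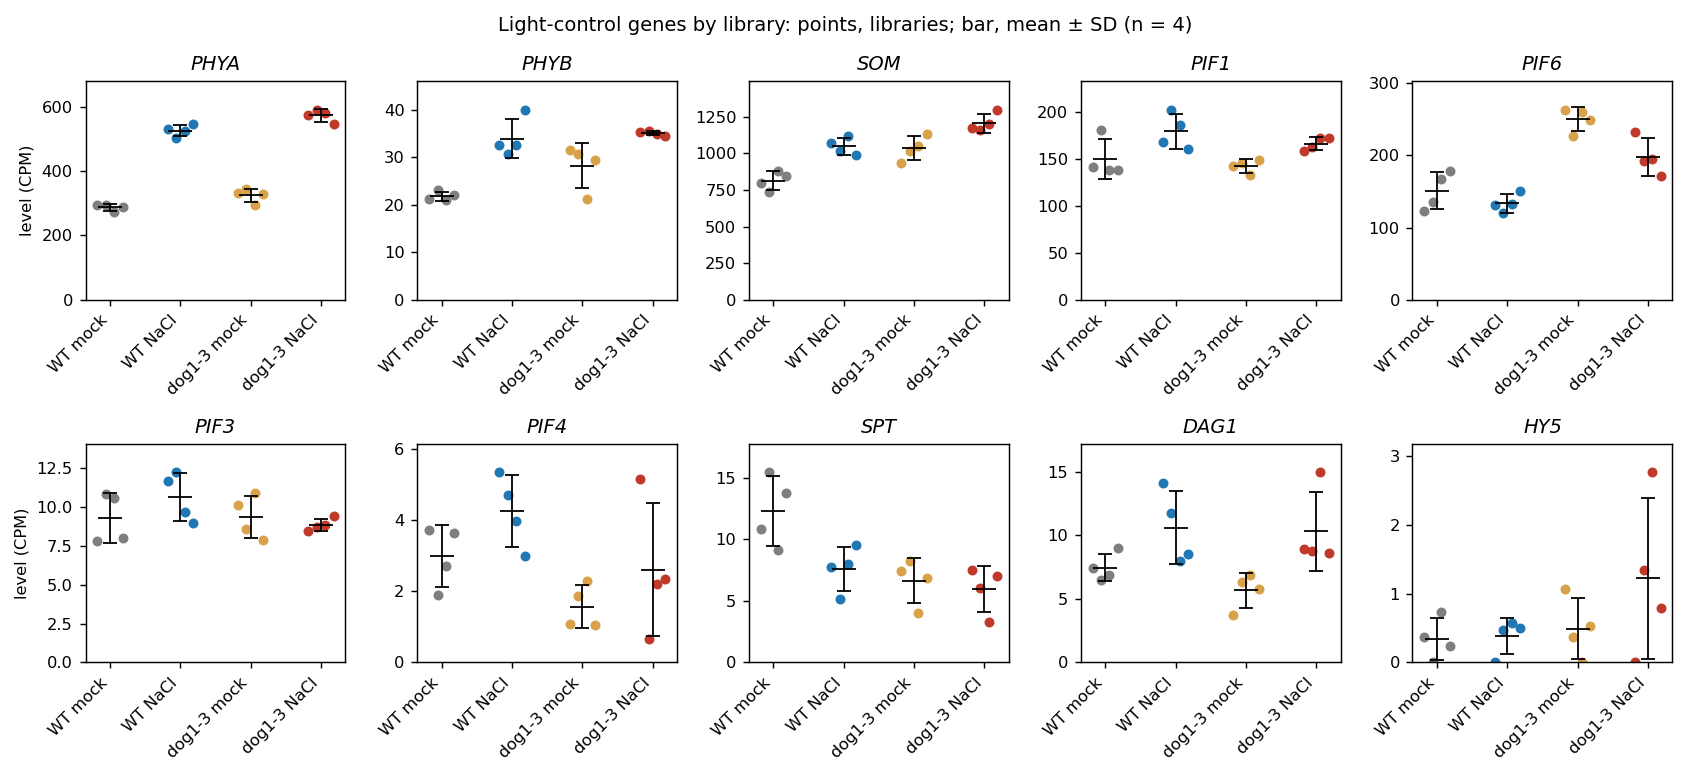
Level of each of the 10 genes in CPM (vertical axes, linear, starting at 0) in the 4 groups. Points are libraries, and bars are the mean ± SD of 4 libraries. *PHYA* separates by treatment, *PIF6* by genotype within each treatment, and *HY5* and *PIF4* lie near the detection floor.

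Both phytochromes were set against each other within each library, a ratio of counts that no scaling of the libraries alters. The *PHYA* to *PHYB* ratio was 13.2 ± 0.51 in WT mock and 15.6 ± 1.35 in WT NaCl (SD, n = 4), with ranges of 12.8 to 13.9 and 13.6 to 16.4 that overlapped (exact permutation p = 0.0571, two-sided). In *dog1-3* it was 11.7 ± 1.48 in mock and 16.3 ± 0.39 on NaCl, with no overlap (exact permutation p = 0.0286, the smallest that 4 against 4 libraries allow). Adjusted over the 12 ratio comparisons made, which were chosen after the data were seen, these exact permutation p-values became 0.0980 and 0.0571, so neither passed. With 0.0286 as the smallest p possible, no ratio could pass this adjustment by itself, so not passing decides nothing about a single ratio.

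**Figure D2:**
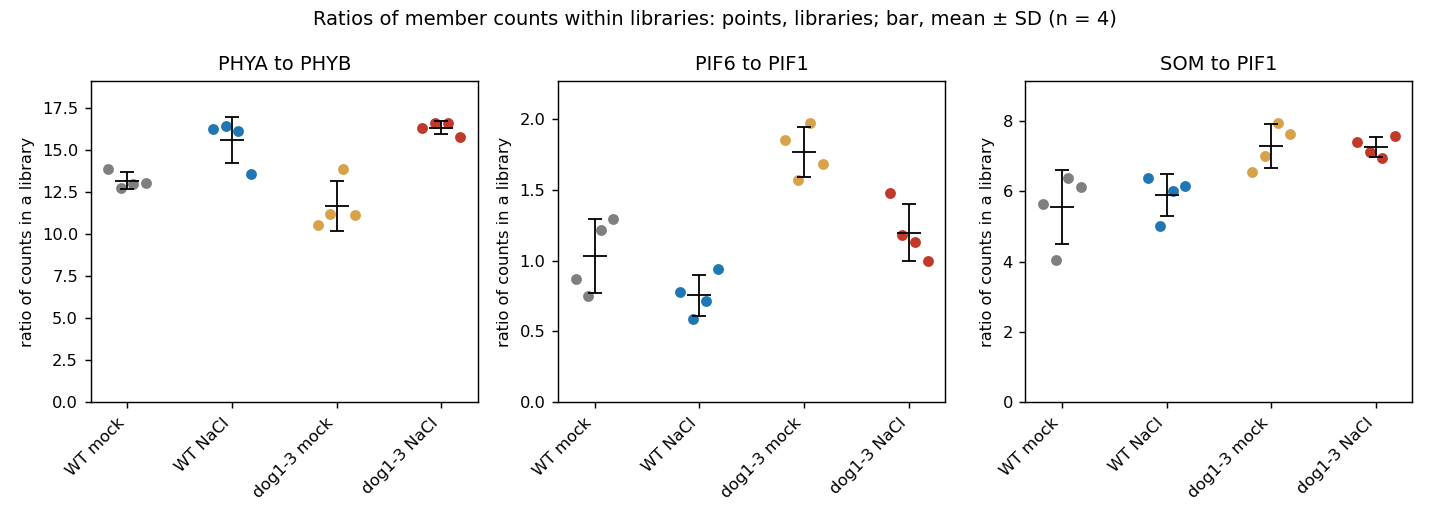
Ratio of the counts of 2 genes within a library (vertical axes, starting at 0) for *PHYA* to *PHYB*, *PIF6* to *PIF1* and *SOM* to *PIF1* in the 4 groups. Points are libraries, and bars are the mean ± SD of 4. The *PIF6* to *PIF1* ratio runs from 1.56 to 1.97 in *dog1-3* mock and from 0.749 to 1.29 in WT mock.

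*PIF1*, the main PIF of dark seeds, was among the more abundant transcripts and varied little. Its 16 libraries lay between 132 and 202 CPM, with group means of 150 ± 21.1 CPM in WT mock, 179 ± 19.0 in WT NaCl, 142 ± 7.07 in *dog1-3* mock and 166 ± 7.17 in *dog1-3* NaCl (SD, n = 4). The WT groups overlapped and the *dog1-3* groups did not. The log2 fold change with salt was 0.26 in WT (SE 0.088, adjusted p = 0.0188, edgeR), under the fold limit, and 0.22 in *dog1-3* (adjusted p = 0.0767). Scaling by library size alone gave 0.14 (adjusted p = 0.200) and 0.05 (adjusted p = 0.745, edgeR). The difference between genotypes was -0.07 in mock (95% interval -0.25 to 0.11) and -0.11 on NaCl (95% interval -0.30 to 0.08). *PIF1* shares 334 bases with AT2G20170, a gene on the other strand that was itself given 1 to 10 counts a library. The sources used here do not say whether counting used strand.

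*PIF6*, a bHLH gene transcribed mainly in developing seeds, differed by genotype. WT libraries held 123, 136, 167 and 178 CPM in mock and 131, 119.6, 133 and 150.0 CPM on NaCl. In *dog1-3* it stood at 264, 228, 261 and 249 CPM in mock and 233, 192, 195 and 171 CPM on NaCl. In both treatments every *dog1-3* library lay above every WT library. The log2 fold change of *dog1-3* against WT was 0.72 in mock, or 1.64-fold (SE 0.096, adjusted p = 1.21e-07, edgeR), and 0.54, under the fold limit, with scaling by library size alone. On NaCl it was 0.58, or 1.49-fold (SE 0.10, adjusted p = 3.36e-05, edgeR), just under the limit of 1.5-fold. Without any one of 5 libraries (*dog1-3* mock replicate 1, WT NaCl replicate 4, or *dog1-3* NaCl replicate 2, 3 or 4) this value rose past the limit, reaching at most 0.65.

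With salt, *PIF6* was 0.33 lower on the log2 scale in *dog1-3* (log2 fold change -0.33, SE 0.10, adjusted p = 0.0119, edgeR), under the fold limit, and the value in WT was -0.19 (adjusted p = 0.148). It was the 1 of the 8 genes tested that passed adjusted p with a negative sign with salt in *dog1-3*. Of all genes tested, 13.5% did so. Both AT3G62080, by 231 bases, and the noncoding RNA gene AT3G09745, by 2083 bases, overlap *PIF6* on the other strand, so that without strand their reads cannot be told apart. Those loci were given at most 12 and 6 counts a library, against 218 to 736 for *PIF6*. The seed markers and, in mock, the summed endosperm markers were higher in *dog1-3* as well, although *MAN7* by itself had a negative value (-0.14). On NaCl the endosperm sum had a higher median in *dog1-3* (25401 against 19604 CPM in WT), with overlapping ranges. There 1 of the 2 markers was positive (0.37) and 1 negative (-0.20). In *dog1-3* the endosperm sum had a lower median on NaCl than in mock (25401 against 30182 CPM). The part of the seed and endosperm markers in the *PIF6* result was not tested. The *PIF6* to *PIF1* ratio was 1.76 ± 0.18 in *dog1-3* mock against 1.03 ± 0.26 in WT mock (exact permutation p = 0.0286, adjusted over 12 comparisons 0.0571). On NaCl it was 1.20 ± 0.20 in *dog1-3* against 0.755 ± 0.14 in WT, with the same exact permutation p-values. With salt the exact permutation p was 0.0286 in *dog1-3* and 0.171 in WT.

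**Figure D3:**
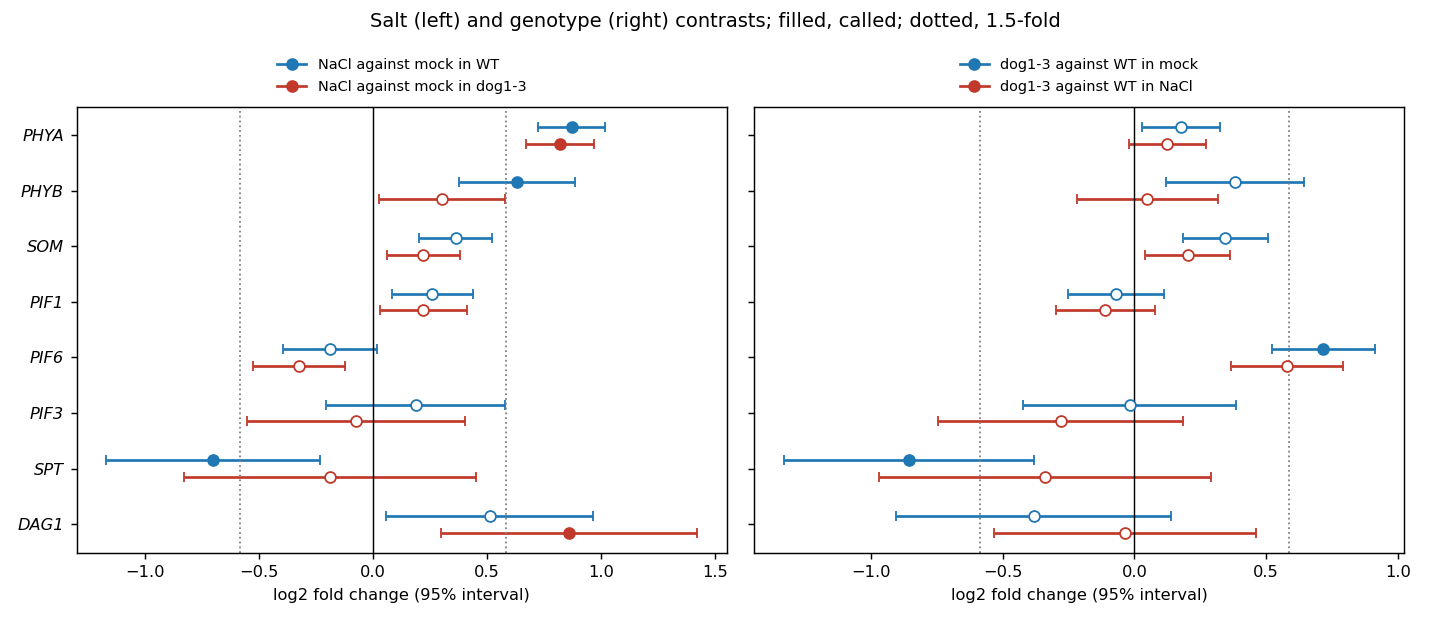
Log2 fold change (horizontal axes) of the 8 genes tested, for NaCl against mock on the left and *dog1-3* against WT on the right, with 95% intervals from edgeR. Filled points pass adjusted p and the 1.5-fold limit drawn as dotted lines. *PHYA* passes in both genotypes with salt, and *PIF6* and *SPT* pass on opposite sides between the genotypes in mock.

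*PIF3* and *PIF4*, PIFs best known from seedlings, were near or under the level that could be tested. *PIF3* had 12 to 43 counts a library and group means between 8.86 and 10.6 CPM, and in none of the 4 comparisons did it pass (lowest adjusted p = 0.410, edgeR). *PIF4* had 1 to 15 counts a library, 109 in all, and means of 2.99 CPM in WT mock, 4.26 in WT NaCl, 1.57 in *dog1-3* mock and 2.60 in *dog1-3* NaCl. In mock, 3 of 4 *dog1-3* libraries lay below every WT library (exact permutation p = 0.0571, two-sided). Tested without the count filter, its adjusted p ranged from 0.178 to 0.437 over the 4 comparisons (edgeR).

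*SPT* was low in every group and highest in WT mock. Its 4 WT mock libraries held 10.8, 15.5, 9.11 and 13.8 CPM and the WT NaCl libraries 7.77, 5.18, 7.97 and 9.50 CPM. The *dog1-3* libraries held 7.46, 8.21, 4.01 and 6.82 CPM in mock and 7.51, 6.03, 3.32 and 7.06 CPM on NaCl, from 6 to 57 counts a library over the 4 groups. All *dog1-3* mock libraries lay below all WT mock libraries, while 3 of 4 WT NaCl libraries did so. *SPT* fell in *dog1-3* against WT in mock by 0.86 on the log2 scale (log2 fold change -0.86, SE 0.23, adjusted p = 0.00384, edgeR). With salt in WT the log2 fold change was -0.70 (SE 0.23, adjusted p = 0.0159, edgeR), a call that did not hold with DESeq2 (adjusted p = 0.0714) or without WT mock replicate 2 (-0.57, adjusted p = 0.0662) or WT NaCl replicate 2 (-0.56, adjusted p = 0.0822). In *dog1-3* the value with salt was -0.19 (95% interval -0.83 to 0.45), and the genotype difference on NaCl was -0.34 (95% interval -0.97 to 0.29), and neither passed.

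*SOM*, the PIF1 target, was the most abundant of the 10 genes, ranking 102 of 12697 by CPM. WT mock libraries held 799.9, 733, 880.0 and 845 CPM and WT NaCl libraries 1071, 1018, 1118 and 986 CPM. In *dog1-3* mock the values were 936, 1019, 1051 and 1133 CPM, and on NaCl 1171, 1157, 1199 and 1299.5 CPM. Neither WT mock and WT NaCl nor *dog1-3* mock and *dog1-3* NaCl overlapped, and each *dog1-3* group also lay wholly above the WT group of its treatment, so that the 4 comparisons were all free of overlap. WT NaCl and *dog1-3* mock overlapped each other. None of the differences reached 1.5-fold.

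The log2 fold change of *SOM* with salt was 0.36 in WT (SE 0.079, adjusted p = 0.000392, edgeR) and 0.22 in *dog1-3* (SE 0.080, adjusted p = 0.0332, edgeR). Between genotypes it was 0.35 in mock (SE 0.079, adjusted p = 0.000628, edgeR) and 0.20 on NaCl (adjusted p = 0.0522). Scaling by library size alone brought *SOM* with salt to 0.24 in WT (adjusted p = 0.0160) and 0.05 in *dog1-3* (adjusted p = 0.682), and between genotypes to 0.17 in mock (adjusted p = 0.0899) and -0.03 on NaCl (adjusted p = 0.836, edgeR), so that WT with salt alone still passed adjusted p. The *SOM* to *PIF1* ratio was 7.28 ± 0.62 in *dog1-3* mock and 5.55 ± 1.05 in WT mock (exact permutation p = 0.0286, 0.0571 over the 12 ratio comparisons). On NaCl it was 7.26 ± 0.28 in *dog1-3* and 5.89 ± 0.60 in WT, with the same exact permutation p-values. With salt the exact permutation p was 0.629 in WT and 0.943 in *dog1-3*. Over the 16 libraries the genes nearest to *SOM* in centred log2 CPM were *UBP6*, *CDC48* and AT5G11680, at root mean square distances of 0.0998, 0.105 and 0.105. Nearest to *PIF1* were AT1G01100, *ANK6* and *CHL-CPN10*, at 0.108, 0.113 and 0.113.

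*DAG1*, the Dof repressor, was read at 7 to 37 counts a library. Libraries held 7.45, 6.51, 6.89 and 8.95 CPM in WT mock and 14.1, 11.8, 7.97 and 8.50 CPM in WT NaCl. They held 3.73, 6.34, 6.87 and 5.77 CPM in *dog1-3* mock and 8.91, 8.72, 14.9 and 8.63 CPM in *dog1-3* NaCl. The *dog1-3* groups did not overlap and the WT groups did. *DAG1* rose with salt in *dog1-3* by 0.86 on the log2 scale, or 1.82-fold (SE 0.28, adjusted p = 0.0170, edgeR). The rise did not pass without *dog1-3* NaCl replicate 3 (0.61, adjusted p = 0.141), the highest of that group, nor without *dog1-3* mock replicate 1 (0.73, adjusted p = 0.0627), the lowest of its group, nor with scaling by library size alone (0.69, adjusted p = 0.0514). In WT the value was 0.51 (adjusted p = 0.0722), which passed without WT mock replicate 4 or WT NaCl replicate 3 or 4, at 0.63, 0.62 and 0.61. The change with salt differed between the genotypes by 0.35 (95% interval -0.38 to 1.07), which did not pass.

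*HY5* was at or near 0 throughout, with 0 to 5 counts a library and 20 in all: 5 counts in WT mock, 3 in WT NaCl, 4 in *dog1-3* mock and 8 in *dog1-3* NaCl. Only *dog1-3* NaCl replicate 3 exceeded the detection floor of 3 counts. No fold change was drawn for it.

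Counted together, 3 of the 8 genes tested were called with salt in WT (*PHYA* and *PHYB* up, *SPT* down), against 16.5% of all genes tested. In *dog1-3*, 2 were called with salt (*PHYA* and *DAG1*, both up), against 14.7%. Between genotypes 2 were called in mock (*PIF6* up and *SPT* down), against 18.4%. On NaCl the count was 0, against 15.7%, and DESeq2 also called 0. There 2 of the 8 had an unadjusted p under 0.05 in edgeR, against 38.4%. The interaction of salt and genotype was called for 0 of the 8, against 0.00788% of all genes, and by DESeq2 for 0. At an unadjusted p under 0.05 the count was also 0, against 6.51%. By adjusted p alone, with no limit on the fold, 5 of the 8 passed with salt in WT (*SOM* and *PIF1* added) against 35.4%, and 4 in *dog1-3* (*SOM* and *PIF6* added) against 28.8%. Between genotypes 4 passed in mock (*SOM* and *PHYB* added) against 35.4%, and 1 on NaCl (*PIF6*) against 28.6%. The median log2 fold change of the 8 genes was 0.31 with salt in WT and 0.22 in *dog1-3*, and 0.08 and 0.01 between genotypes in mock and on NaCl, where the medians over all genes lay between -0.02 and 0.00.

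Non-overlapping libraries of the 2 groups were found for 3 of the 8 tested genes with salt in WT (*PHYA*, *PHYB* and *SOM*), where 31.5% of all genes had them. In *dog1-3* 5 of the 8 had them (*PHYA*, *PHYB*, *PIF1*, *SOM* and *DAG1*), against 26.8%. Between genotypes there were 3 in mock (*PIF6*, *SPT* and *SOM*) against 31.7%, and 3 on NaCl (*PHYA*, *PIF6* and *SOM*) against 26.9%. *PHYA* was thus higher in each *dog1-3* NaCl library than in each WT NaCl library, by 0.12 on the log2 scale (adjusted p = 0.208, edgeR), which did not pass, and the sign turned when libraries were scaled by size alone.

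Around these genes, 53 further genes of light and hormone signalling were listed, of which 31 could be tested. Among 7 other phytochromes and import factors, *FHL*, which carries phyA into the nucleus, fell with salt in both genotypes (log2 fold change -1.65 in WT and -1.28 in *dog1-3*) and was higher in *dog1-3* in both treatments (1.40 in mock and 1.76 on NaCl). It was low, at 2.80 CPM in WT mock, 0.871 in WT NaCl, 7.62 in *dog1-3* mock and 2.96 in *dog1-3* NaCl, and WT NaCl libraries had 0 to 3 counts. *FHL* may have passed the count filter through *dog1-3* mock alone, the group where it was highest. Its differences from that group are therefore description only, and its fall with salt in WT ended at or under the detection floor. *PHYD*, the close relative of *PHYB*, was called in *dog1-3* against WT on NaCl alone (0.60), though it was higher in mock by 0.55 (adjusted p = 0.00630, edgeR) under the fold limit. Apart from *FHL*, no gene of this list of 7 was called with salt, where 16.5% of all genes were called in WT and 14.7% in *dog1-3*.

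Of 10 other PIF-related bHLH and Dof genes, 9 had at most 12 counts in any library, and *LUH*, a corepressor partner of PIF1, did not pass in any comparison. Of 13 COP1-SPA, cryptochrome and HY5-partner genes, 9 were tested. *SPA1*, a partner of the ubiquitin ligase COP1, was called up with salt in WT (0.65) and in *dog1-3* against WT in mock (0.64). *BBX21*, a B-box protein that acts with HY5, was called up in *dog1-3* in mock (0.96, 1.95-fold) and on NaCl (0.69), at 147 ± 14.0 CPM in WT mock and 288 ± 28.4 CPM in *dog1-3* mock (SD, n = 4). Of the 9 tested, 1 was called with salt in WT, against 16.5% of all genes tested, and 0 in *dog1-3*, against 14.7%. Between genotypes 2 were called in mock, against 18.4%, and 1 on NaCl, against 15.7%. None was called down, where 7.07% to 8.44% of all genes were.

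Among 15 hormone genes that act downstream, 12 were tested. *GA3OX1*, the enzyme of the last step to active gibberellin, fell in all 4 comparisons. Its log2 fold change was -1.14 with salt in WT, -1.50 in *dog1-3*, -1.59 between genotypes in mock and -1.95 on NaCl (adjusted p = 0.000402 or lower in each, edgeR), from 28.5 ± 4.95 CPM in WT mock to 3.18 ± 1.41 CPM in *dog1-3* NaCl (SD, n = 4). *RGA*, a DELLA repressor of gibberellin responses, rose with salt in both genotypes (0.63 and 0.62) and was 0.51 lower in *dog1-3* in mock (log2 fold change -0.51), under the fold limit. *GAI*, another DELLA gene, was lower in *dog1-3* by a like amount (-0.44 in mock and -0.43 on NaCl), also under the limit. *GA2OX2*, which inactivates gibberellin, was higher in *dog1-3* in both treatments (0.91 and 1.00).

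Of the abscisic acid genes, *ABA1* and *NCED9*, which serve its synthesis, were called up in *dog1-3* in mock (0.94 and 1.26) and on NaCl (0.88 and 0.69). *CYP707A2*, which breaks it down, was called down (-0.89 and -0.79). *NCED6*, another synthesis gene, fell with salt in WT (-0.84) and was higher in *dog1-3* on NaCl (0.69). *ABI5*, a bZIP factor of the abscisic acid response, was higher in *dog1-3* in mock (0.78, adjusted p = 6.92e-11, edgeR) and just under the fold limit on NaCl (0.58). *ABI3*, a B3 factor that works with PIF1 at *SOM*, rose with salt in WT by 0.53 (adjusted p = 5.32e-07, edgeR), under the limit. *JMJ22*, a histone demethylase that acts on *GA3OX1*, was lower in *dog1-3* in mock (-0.77) and rose with salt in *dog1-3* (0.65), and *RVE2*, a MYB-like factor linked to dormancy, was higher in *dog1-3* (0.78 and 0.59).

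Of the 12 hormone genes tested, 1 was called up and 2 down with salt in WT, where 16.5% of all genes were called in either direction, and 3 up and 1 down in *dog1-3*, where 14.7% were. Between genotypes 5 were called up and 3 down in mock, against 18.4% of all genes, and 5 up and 2 down on NaCl, against 15.7%. The median log2 fold change of the 12 was 0.40, 0.21, 0.20 and 0.30 in the same order, and that of all genes 0.00, -0.02, -0.01 and -0.02. Of 8 light-induced genes, 2 were tested. *RBCS1A*, a small subunit of Rubisco, rose with salt (0.60 in WT and 0.79 in *dog1-3*), and *PORC*, a chlorophyll synthesis enzyme, fell (-1.50 and -1.97) from 5.06 CPM in WT mock and 3.87 CPM in *dog1-3* mock. As a low transcript, *PORC* may have passed the count filter through the mock groups alone, where it was higher, so its fall is description only. The seed and endosperm markers differed between the same groups, as given above, and their part in these values was not tested.

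**Figure D4:**
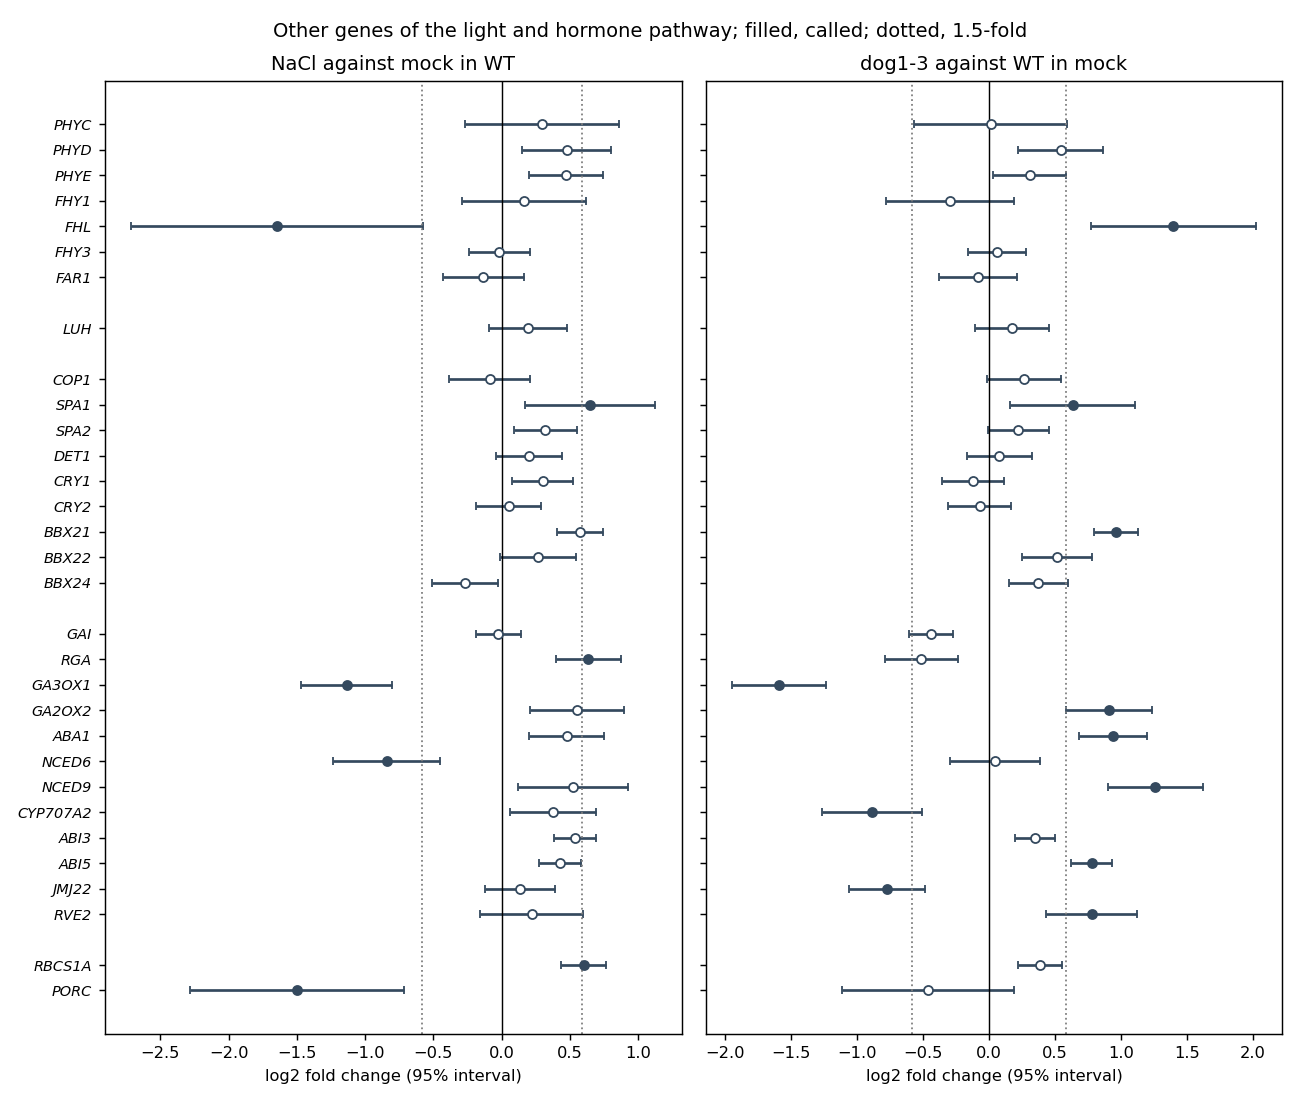
Log2 fold change with 95% intervals (horizontal axes) of the 31 tested genes of the wider light and hormone lists, for NaCl against mock in WT on the left and *dog1-3* against WT in mock on the right. Filled points pass adjusted p and the 1.5-fold limit drawn as dotted lines. *FHL* and *PORC*, both low transcripts, lie farthest to the left with salt, and *GA3OX1* lies farthest to the left by genotype.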

How the data were processed

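3′RNA-seq of seeds from 4 groups with 4 libraries each was analysed. The authors primed RNA with barcoded oligo(dT), and deposited unnormalized counts per locus in each library. The submitters' processing notes name STAR 2.7.8a, DESeq2 and TAIR10. The use of strand and of molecular identifiers is not given in the sources used here. Of 37336 loci, 37051 matched TAIR10.1 locus tags. That RefSeq assembly gave the sequences, coordinates and overlaps.

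From the counts, edgeR 4.0.16 (R 4.3.3) was run with TMM scaling, filterByExpr (minimum count 10) and the quasi-likelihood test in one model over all 16 libraries. Calls needed a Benjamini-Hochberg adjusted p under 0.05 over 12697 genes and more than 1.5-fold. The script was tested on simulated data. Single values used exact permutation tests. No 2 libraries of a group agreed within sampling noise (chi-square per degree of freedom of 1.60 or more). The alternatives were DESeq2 1.42.0, other scalings, no count filter, no fold limit, only the groups compared, the replicate number as a block, and each library left out.

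The 10 genes and the lists were chosen with earlier results of these data known. The genes named were those 10, the listed genes that were called (at most 6 a list and comparison, by adjusted p), *RGA*, *GAI*, *GA3OX1*, *CYP707A2*, *ABI3* and *ABI5* whatever they did, *DOG1*, the markers, *LUH* as the 1 tested gene of its list, and the 3 genes nearest to *SOM* and to *PIF1*. The planned search of protein sequences was not run.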

Additional observations from a re-analysis of the deposited data

Results flagged for a closer look

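In WT mock, *PIF1* in replicate 2 stood at 181 CPM (668 counts), where the other 3 libraries lay between 138 and 142 CPM. In *dog1-3* NaCl, *DAG1* in replicate 3 stood at 14.9 CPM (27 counts), where the others lay between 8.63 and 8.91 CPM. Both were single libraries far from the rest of their group by Dixon's test. They were 2 of 40 groups examined, and chance gives about 1 in 20.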

How the results depend on the processing

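Over the alternatives that kept every library, 265 of the values per gene kept their direction and their side of the threshold, 4 lost the call and 3 reversed. With a library left out these numbers were 615, 5 and 12, and 8 gained a call. Scaling by library size alone moved the median log2 fold change of all genes to -0.12 and -0.19 with salt in WT and *dog1-3*, and to -0.18 and -0.25 between genotypes in mock and on NaCl. The share of calls that were up fell from 57.2% to 35.0%, 51.3% to 21.7%, 54.1% to 29.6% and 52.0% to 19.7%. Against that shift, *PHYA* (-0.11), *PHYB* (-0.18) and *SOM* (-0.025) turned negative between genotypes on NaCl. Of the 10 genes, the number called was then 1 with salt in *dog1-3* and 1 between genotypes in mock, since *DAG1* (0.69, adjusted p = 0.0514, edgeR) and *PIF6* (0.54) lost the call, as did *PHYB* with salt in WT (0.52). With no fold limit the number called was 5 and 4 with salt in WT and *dog1-3*, and 4 and 1 between genotypes. DESeq2 lost *SPT* with salt in WT (-0.71, adjusted p = 0.0714).

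With each library left out in turn, the number of the 10 genes called ranged from 2 to 4 with salt in WT, 1 to 2 with salt in *dog1-3* and 0 to 1 between genotypes on NaCl. Signs turned for *PIF1* between genotypes in mock (-0.10 to 0.044) and in the interaction (-0.15 to 0.041), *PIF3* between genotypes in mock (-0.089 to 0.066), *DAG1* between genotypes on NaCl (-0.28 to 0.13) and *SPT* with salt in *dog1-3* (-0.37 to 0.027), none of which was called. For these the cause was not tested beyond the library left out.

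Same replicate numbers did not pair the libraries: the deviations of 24 pairs correlated at r = -0.06 to 0.09. With the replicate block the numbers called stayed at 3, 2, 2 and 0, and 0 for the interaction. Over all genes the calls with the block were 2106 in WT with salt against 2099 without. *PIF3*, *PIF4*, *SPT*, *DAG1* and *HY5* were read at 57 counts or fewer a library.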
